A study of Arabidopsis thaliana with 11 samples.

Results

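The arf2 mutant was compared with its wild type, Col, in Arabidopsis seedlings whose brassinosteroid synthesis had not been inhibited. The comparison takes 6 of the 11 Affymetrix ATH1 arrays of the study, chosen by their titles: 3 of arf2 and 3 of Col, all from mock-treated seedlings. Each array held RNA from whole seedlings that had grown in darkness and were 4 days old. The other 5 arrays, 3 of Col and 2 of arf2, came from seedlings of the same age grown on 0.5 µM brassinazole (BRZ), and they entered the same model, where they helped to set the variance and gave the genotype difference on BRZ from separate arrays. The labels call the replicates independent biological ones. They name no allele of arf2, and no probe set was named for ARF2, so its level was not analysed here.

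ARF2 is an auxin response factor, a transcription factor that binds auxin response elements in promoters and acts mainly as a repressor. Mutants in ARF2 are known for large seeds and organs, late flowering and late senescence. Brassinosteroids are steroid hormones that drive hypocotyl growth in the dark, and the kinase BIN2 of their signalling pathway is known to act on ARF2. BRZ blocks brassinosteroid synthesis, whereas the mock medium leaves it running.

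The deposited values were gcRMA intensities on a linear scale, and their log2 was taken before any comparison. Probe sets were tested with limma's moderated test in 1 model of all 11 arrays, and a probe set was called when its adjusted p (Benjamini-Hochberg) was under 0.05. Errors of log2 changes are standard errors of that model, and the number of arrays limits their precision. A fold is given only where both mock group means exceeded an intensity of 23.1, the mean lower quartile of the mock arrays. The mock arrays were not alike in general features. The median log2 value was 5.96 and 5.93 on Col replicates 1 and 2, against 6.20 on Col replicate 3 and 6.09 to 6.22 on the arf2 arrays. Deviations from the group means ran together on Col replicate 2 and arf2 replicate 3 (r = 0.60 across probe sets, which are not independent). They did so less on Col replicate 3 with arf2 replicates 1 and 2 (r = 0.48 and 0.34). The remaining pairs gave -0.59 to 0.21. The 25S ribosomal RNA control gave 59.7 to 95.9 on the Col arrays and 173 to 263 on the arf2 arrays. On BRZ it ran the other way, with 97.2, 85.3 and 131 on the Col arrays and 33.6 and 63.9 on the arf2 arrays. The mock difference had an exact two-sided permutation p of 0.1, the smallest that 3 arrays against 3 allow. The part of these features in the results below was not tested. Counts without Col replicates 1 and 2 are given below for classes described by their counts, where they differ by more than 1.5 times.

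On mock medium arf2 seedlings differed from Col in many transcripts, mostly by less than 2-fold. Of 21886 probe sets tested, 1177 were called higher in arf2 (5.38%) and 432 lower (1.97%), which is 1609 in all (7.35%). The median fold was 1.52 among the higher calls and 1.53 among the lower ones. At least 2-fold differences were found for 287 called probe sets (1.31%), 218 higher and 69 lower, and at least 4-fold differences for 39 and 12. The 3 arf2 arrays lay wholly above or below the 3 Col arrays for 4565 probe sets (20.9% of those tested) and for 1602 of the 1609 calls. The supplied annotation gave 1 gene name to 797 of the calls, several to 36 and none to 776. Taking the probe set with the highest mean for each gene, 599 of 12706 genes were called higher (4.71%) and 194 lower (1.53%), and the median log2 change of all genes was 0.04.

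The share of calls that were higher depended on the scaling. It was 73.2% with the values as deposited. Quantile normalization gave 53.6% (819 probe sets higher and 710 lower), and setting all arrays to the same median gave 44.3% (620 and 781). The latter shifted the middle of all log2 changes from 0.05 to -0.09, so small changes have a direction only relative to that shift. Every one of the 1609 calls kept its direction under both scalings. The count also turned on single arrays. It was 3040 without Col replicate 3 and 882 without arf2 replicate 1, and 1024 without arf2 replicate 2. Without Col replicates 1 and 2 together, 388 probe sets were called higher and 338 lower. The plot of calls by setting shows all of these counts.

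**Figure D1:**
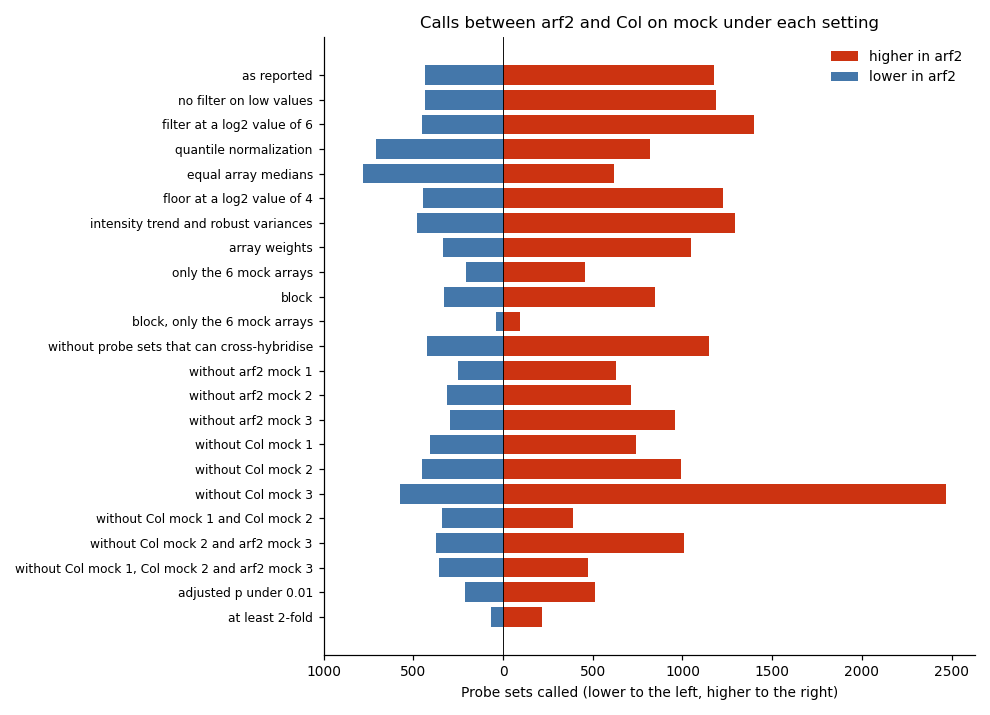
Number of probe sets called between arf2 and Col on mock medium under each setting, with those higher in arf2 to the right of 0 and those lower to the left. The bar for equal array medians is the longest on the left (781 lower), and the bar without Col replicate 3 is the longest on the right (2468 higher).

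Calls fell on all nuclear chromosomes and were more frequent at higher levels. The plot of change against level shows the levels. Among the 5472 probe sets with the lowest mean, 0.58% were called higher and 0.16% lower, against 8.64% and 4.22% among the 5472 with the highest mean. Between 4.17% and 5.15% of the genes of each nuclear chromosome were called higher. Between 1.29% and 2.25% were called lower, with chromosome 4 at the upper end.

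**Figure D2:**
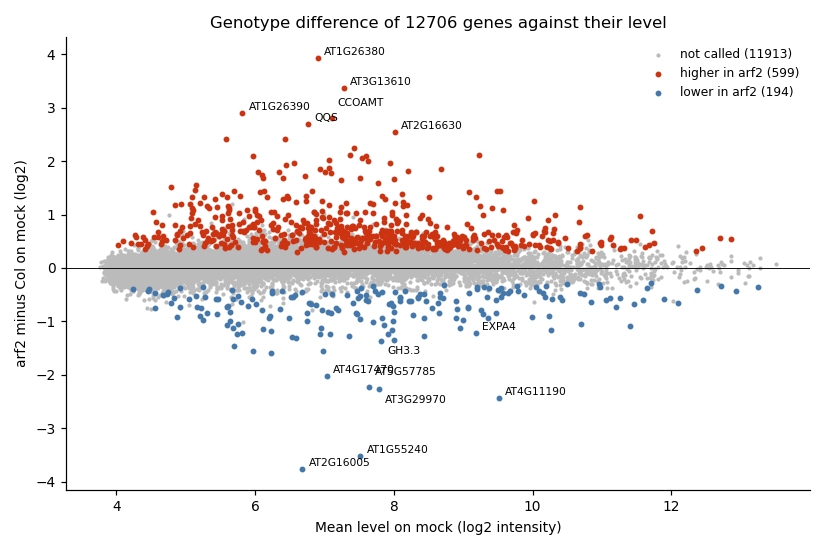
Log2 difference of arf2 minus Col on mock medium for 12706 genes against their mean log2 intensity on the 6 mock arrays, with 599 genes called higher in red and 194 called lower in blue. AT1G26380 lies farthest above 0 (3.94) and AT2G16005 farthest below (-3.77).

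The 12 largest rises and 12 largest falls were taken among called probe sets that named exactly 1 gene, so calls without a gene name are not ranked. Their groups also had to be free of overlap on mock, so that separation is part of the choice. The largest rise was that of AT1G26380, which belongs to the berberine bridge oxidases, flavin-dependent enzymes with members induced by pathogen elicitors. Its intensity was 25.9, 44.1 and 25.3 on the Col arrays and 502, 332 and 623 on the arf2 arrays. All 3 arf2 values stood above the highest Col value, and the log2 change was 3.94 ± 0.24 (15.3-fold, limma adjusted p = 2.74e-06, n = 3 and 3). Its chromosomal neighbour AT1G26390 read 19.04, 26.6 and 17.5 in Col and 125, 107 and 272 in arf2. The groups did not overlap (log2 change 2.89 ± 0.29, limma adjusted p = 9.83e-05), and no fold is given because the Col mean was under the lower quartile. AT1G26420 of the same cluster also rose, from 19.4 to 25.3 in Col to 40.6 to 63.5 in arf2 (2.17-fold). AT1G26410, which lies between them, was not called: arf2 replicate 2, at 40.4, fell inside the Col range of 22.96 to 55.6 (log2 change 1.21 ± 0.37, limma adjusted p = 0.075). Of 20 berberine bridge oxidases measured, 5 were called higher and 1 lower, beside 4.71% and 1.53% of all genes. Their median log2 change was 0.05, and -0.10 with equal array medians. The lower one, AT5G44440, read 2185, 2385 and 2598 in Col and 1216, 1081 and 1170 in arf2 (2.07-fold lower, limma adjusted p = 5.64e-04).

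The next largest rise came from the coumarin pathway. AT3G13610, listed as F6'H1, encodes feruloyl-CoA 6'-hydroxylase, the enzyme that opens the route to scopoletin. It read 47.2, 45.8 and 52.1 in Col and 604, 278 and 735 in arf2. All arf2 values lay above the Col values, with replicate 2 the lowest of them, and the log2 change was 3.37 ± 0.28 (10.3-fold, limma adjusted p = 2.56e-05). CCOAMT, which methylates caffeoyl-CoA and so supplies feruloyl-CoA, rose from 56.1, 43.4 and 58.0 to 306, 333 and 472 (6.99-fold, limma adjusted p = 6.13e-06). The list of iron deficiency and coumarin genes had 12 measured members. Of these 2 were called higher and none lower, beside 4.71% and 1.53% of all genes. No other member than these was called, including BHLH101, a regulator of the iron deficiency response (log2 change 0.40), and BGLU42, a beta-glucosidase that releases coumarins from their glucosides (0.42). The list's median log2 change was 0.17. Outside it, bHLH121 of the bHLH transcription factors was called higher (1.33-fold, limma adjusted p = 0.0239). That call was lost without arf2 replicate 1, arf2 replicate 2, Col replicate 1 or Col replicate 2 (adjusted p from 0.0526 to 0.117).

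QQS, an orphan gene known to affect starch content, rose with little spread among arrays. It read 48.0, 41.2 and 39.4 in Col and 255, 317 and 260 in arf2, a log2 change of 2.69 ± 0.11 (6.46-fold, limma adjusted p = 1.52e-07). None of the 5 measured genes of starch metabolism was called, beside 6.24% of all genes, and their log2 changes lay between -0.19 and 0.09. Among the rest of the 12 largest rises, AT2G16630 went from 100.98, 95.7 and 128 to 650, 705 and 530 (5.81-fold) and AT2G34930 from 39.96, 24.4 and 53.3 to 155, 236 and 218 (5.35-fold). The supplied table gives both no name beyond the locus number. AT1G14550, a class III peroxidase, read 20.6, 19.99 and 21.6 in Col and 60.6, 134 and 164 in arf2 (log2 change 2.41 ± 0.28). AT3G16530 (4.72-fold), AT2G38870 (4.31-fold), AT3G05950 (4.31-fold) and AT2G23270 (4.26-fold) completed the set, with adjusted p from 1.46e-05 to 0.00361. The call of AT2G23270 was lost when the model held the 6 mock arrays alone, while the other 11 genes of the set kept theirs.

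The steepest fall was that of AT2G16005, from 272, 483 and 415 on the Col arrays to 33.9, 25.9 and 24.5 on the arf2 arrays. The groups did not overlap, and the log2 change was -3.77 ± 0.22 (13.6-fold lower, limma adjusted p = 2.11e-06). AT1G55240 fell from 557, 695 and 614 to 55.5, 64.9 and 44.1 (log2 change -3.52 ± 0.17, 11.4-fold lower, limma adjusted p = 4.29e-07). AT4G11190, of the dirigent proteins that steer phenol coupling in lignan and lignin formation, read 1658, 1830 and 1625 in Col and 344, 324 and 276 in arf2 (5.43-fold lower, limma adjusted p = 4.43e-07).

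AT3G29970 was 4.81-fold lower in arf2, with values of 348, 571 and 566 in Col and 89.3, 171 and 66.2 in arf2. AT5G57785 was 4.69-fold lower, at 425, 427 and 442 in Col against 80.3, 102 and 94.8. Its neighbour P1R1 was 2.02-fold lower, and this was 1 of the 2 pairs of adjacent genes that were both called lower. AT4G17470 read 265, 267 and 262 in Col and 57.6, 65.8 and 72.5 in arf2 (4.07-fold lower). The other 6 of the 12 largest falls were AT5G44580 (2.997-fold), the pectin methylesterase PME61 (2.94-fold), AT5G10770 (2.93-fold), AT5G02890 (2.77-fold), the auxin-conjugating enzyme GH3.3 (2.57-fold) and the vacuolar processing enzyme DELTA-VPE (2.56-fold).

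**Figure D3:**
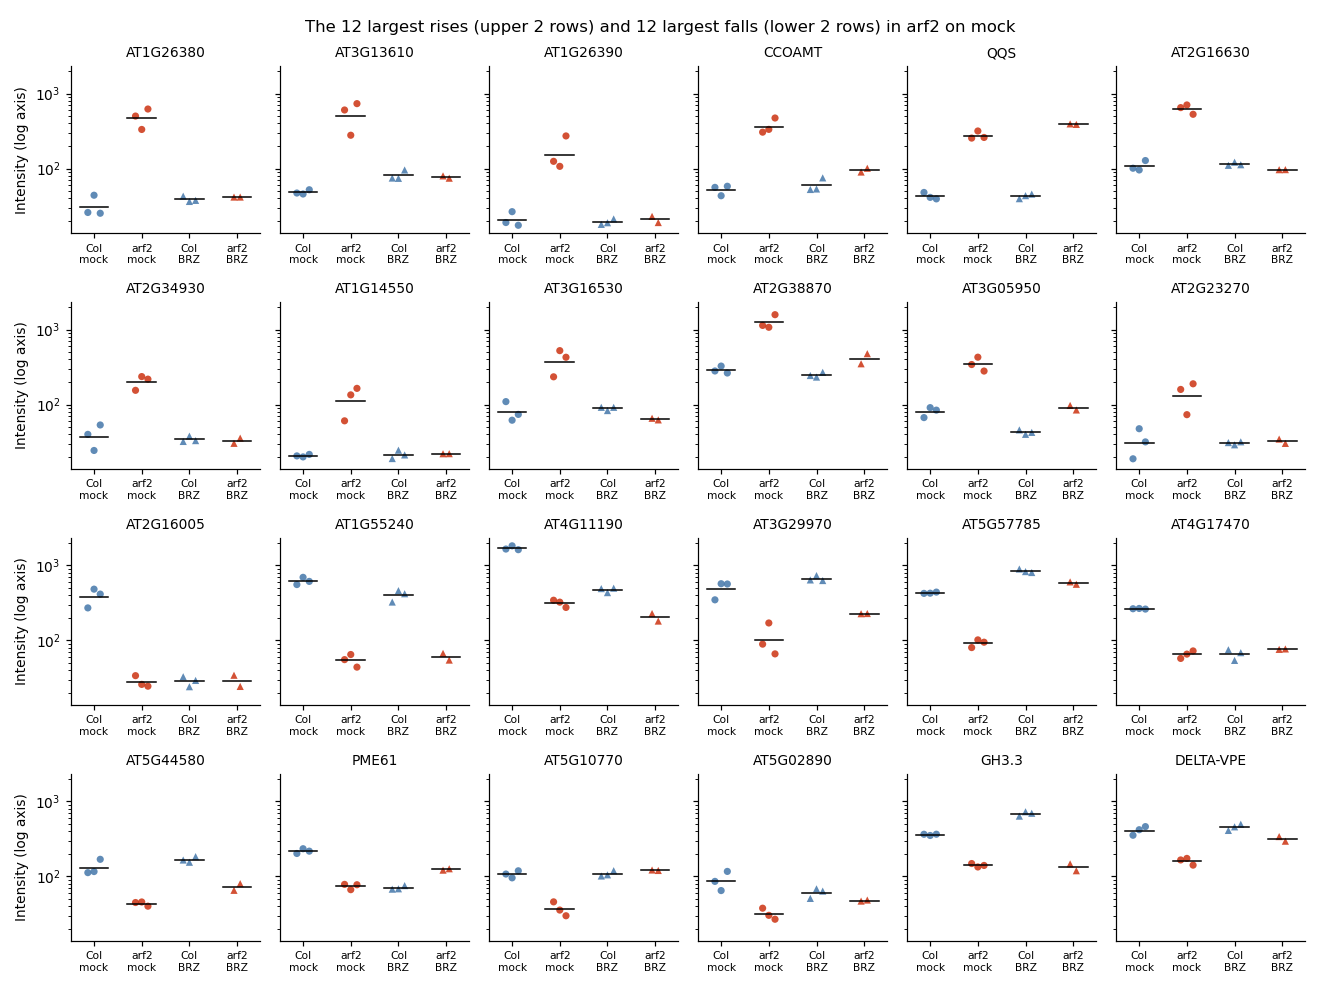
Intensity on a log axis of the 12 genes with the largest rise (upper panels) and the 12 with the largest fall (lower panels) in arf2 on mock, with 1 point per array, Col in blue, arf2 in red, mock as circles and BRZ as triangles, and a line at each group's geometric mean. Genes were chosen without overlap on mock. On BRZ, QQS and AT1G55240 keep a gap between the genotypes, while AT1G26380 and AT2G16005 do not.

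Adjacent genes were also compared. Of 5477 pairs of neighbours with both genes tested, 26 had both called higher, 2 both lower and 8 opposite calls. Among all genes 4.71% were called higher and 1.53% lower, so some such pairs arise without any link between neighbours. Whether neighbours shared a call more often than other genes was not tested. Beside the berberine bridge pair, AT2G38870, a protease inhibitor of the pathogenesis-related type, and its neighbour YLS5 rose together. AT2G38870 read 280, 326 and 263 in Col and 1135, 1072 and 1579 in arf2, and YLS5 202, 209 and 232 in Col and 1048, 518 and 864 in arf2 (3.63-fold). The glutathione transferases GSTU25 and GSTU26, neighbours on chromosome 1, went opposite ways. GSTU25 rose from 24.1, 31.4 and 27.4 to 57.9, 64.3 and 82.6 (2.46-fold), and GSTU26 fell from 339, 345 and 397 to 210, 225 and 124 (1.997-fold). Of 14 measured glutathione S-transferases 2 were called higher and 1 lower, beside 4.71% and 1.53% of all genes, with a median log2 change of -0.05. The other higher one, GSTU16, lost its call without any single mock array but Col replicate 3 (adjusted p from 0.0529 to 0.0895). The lower calls numbered 3 with quantile normalization and 4 with equal array medians. Without Col replicates 1 and 2 there were 1 higher and 2 lower.

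Pathogenesis-related proteins and chitinases, which act against fungal walls and microbes, held several of the larger rises. Of 15 measured, 7 were called higher and none lower, beside 4.71% and 1.53% of all genes, and the median log2 change was 0.55 beside 0.04. The highest were AT2G38870 (2.11) and the defensin PDF1.4, which read 28.95, 42.3 and 42.9 in Col and 105, 160 and 119 in arf2 (3.36-fold, limma adjusted p = 3.17e-04). The chitinase AT1G02360 rose from 205, 290 and 232 to 504, 421 and 509 (1.99-fold), and AT2G43590 from 1044, 946 and 1029 to 1731, 1477 and 1538 (1.57-fold). AT2G43620 was called although arf2 replicate 1, at 32.3, lay inside the Col range of 19.003 to 35.9, and the call was lost when any of 4 single arrays was left out (Col replicate 1 or 3, arf2 replicate 2 or 3), with adjusted p from 0.0576 to 0.136. CHI lost its call without arf2 replicate 1 (adjusted p = 0.0577).

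Other classes often read as stress responses held a few calls each. Of 9 plant U-box ubiquitin ligases, PUB23 rose from 69.5, 96.1 and 80.2 to 209, 190 and 181 (2.37-fold, limma adjusted p = 8.65e-05). PUB24 was called at 1.61-fold, and no other of the 9 was called, beside 4.71% and 1.53% of all genes called higher and lower. The median log2 change of the 9 was 0.18, and 0.04 with equal array medians. The call of PUB24 was lost without arf2 replicate 1, arf2 replicate 2 or Col replicate 1, with adjusted p from 0.0679 to 0.0931. Of 7 WRKY transcription factors, WRKY6 and WRKY53 were called higher, at 1.42-fold and 1.48-fold, and none lower, beside the same shares of all genes. The median log2 change of the 7 was 0.38, and 0.23 with equal array medians. Both WRKY calls were lost with quantile normalization, with equal array medians and without Col replicates 1 and 2, and that of WRKY53 without any single mock array but arf2 replicate 3 (adjusted p from 0.0543 to 0.163).

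Small heat shock proteins, chaperones that hold unfolding proteins, were the class with the highest median among those with at least 4 measured members. Of 8 measured, 5 were called higher and none lower, beside 4.71% and 1.53% of all genes, and the median log2 change was 0.99. AT2G29500 rose from 63.5, 70.2 and 74.5 to 293, 190 and 250 (3.47-fold, limma adjusted p = 1.55e-04), and AT5G37670 from 37.6, 38.6 and 52.8 to 130, 117 and 99.5 (2.70-fold). In both the arf2 arrays lay above all Col arrays. AT5G51440 (2.12-fold), ATHSP22.0 (2.08-fold) and AT1G53540 (1.90-fold) were the other calls. The 3 members not called had log2 changes from 0.14 to 0.51. With the 6 mock arrays alone 3 of the 8 measured members were called higher. AT5G51440 and ATHSP22.0 then lost the call (limma adjusted p = 0.0525 and 0.0789).

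UDP-glycosyltransferases join sugars to hormones, phenolics and toxins. The list of this class need not hold every gene of the family, so its counts cover the listed genes only. Of its 51 measured members, 9 were called higher and none lower, beside 4.71% and 1.53% of all genes. The median log2 change of the class was 0.08, but -0.01 with quantile normalization and -0.06 with equal array medians. UGT84A3 read 23.8, 36.8 and 26.1 in Col and 82.2, 60.4 and 81.5 in arf2 (2.61-fold, limma adjusted p = 3.21e-04). UGT73B1 rose from 160, 212 and 219 to 476, 458 and 393 (2.26-fold). The adjacent genes UGT73B5 and UGT73B4 were 1.91-fold and 1.78-fold higher in arf2, with no overlap between the groups. UGT71C2 (1.80-fold) and UGT76E2 (1.59-fold) were called as well. Without arf2 replicate 1 the class had 6 calls higher, and 6 also without Col replicate 1. Without Col replicate 3 there were 10 higher and 1 lower.

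Cell wall classes held calls in both directions. Expansins loosen walls and are among the genes most used to follow growth. Of 19 measured, EXPA9 was called higher and 4 were called lower, beside 4.71% and 1.53% of all genes, with a median log2 change of -0.08. EXPA4 read 941, 838 and 889 in Col and 375, 365 and 401 in arf2 (2.34-fold lower, limma adjusted p = 1.32e-05), with no overlap between the groups. EXPA16 fell from 66.5, 69.9 and 62.3 to 33.1, 38.1 and 40.8 (1.78-fold lower). EXPA9 rose from 843, 897 and 971 to 1411, 1530 and 1422 (1.61-fold). EXPB3 and EXLA3 were the other lower calls, and both lost the call without arf2 replicate 1, arf2 replicate 2 or Col replicate 1 (adjusted p from 0.0518 to 0.141), which left 2 lower calls. EXPB3 also lost it without Col replicate 2 (adjusted p = 0.0668). Without Col replicates 1 and 2 the class had 2 lower calls and a median of 0.04.

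Pectin methylesterases, which set the charge and stiffness of pectin, held 4 higher and 3 lower calls among 43 measured members and inhibitors, beside 4.71% and 1.53% of all genes (median log2 change -0.06). Without Col replicates 1 and 2 there were 2 higher calls and the median was 0.09. PME61 read 202, 234.1 and 217 in Col and 78.3, 66.5 and 77.4 in arf2, and PMEPCRF 89.9, 121 and 132 in Col and 49.7, 50.03 and 50.2 in arf2 (2.25-fold lower). In the other direction ATPMEPCRB rose from 39.8, 30.4 and 56.1 to 92.0, 156 and 92.1 (2.69-fold). Of 10 xyloglucan endotransglucosylases, which cut and rejoin wall xyloglucan, XTH16 alone was called (1.79-fold lower), and this call was lost without arf2 replicate 1, arf2 replicate 3 or Col replicate 1 (adjusted p from 0.0523 to 0.0863). None of the 15 family 9 endoglucanases, 8 cellulose synthases and 7 tubulins was called. Among all genes 6.24% were called, so few or no calls in lists of these sizes tell little. XTH16 was not called without Col replicates 1 and 2 either, while 1 endoglucanase and 1 cellulose synthase were then called lower.

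Dirigent proteins and class III peroxidases both work on phenolic polymers of the wall. Of 15 measured dirigent proteins, none was called higher and 5 were called lower, beside 1.53% of all genes, and their median log2 change was -0.08. AT2G39430 read 635, 639 and 612 in Col and 371, 397 and 346 in arf2 (1.70-fold lower). AT1G55210 fell from 500, 467 and 495 to 240, 328 and 309 (1.68-fold lower). AT4G11190 and AT4G11210 were the second pair of neighbours both called lower, although AT4G11210 had a low level in both genotypes (15.7 to 22.05) and lost its call without arf2 replicate 1, arf2 replicate 2, Col replicate 1 or Col replicate 2 (adjusted p from 0.0587 to 0.114). With the 6 mock arrays alone 3 dirigent genes were called, and 3 also without Col replicates 1 and 2.

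Of 55 measured class III peroxidases 6 were called higher and 5 lower, beside 4.71% and 1.53% of all genes, with a median log2 change of 0.02, and -0.13 with equal array medians. AT5G39580 rose from 348, 352 and 405 to 912, 802 and 1085 (2.52-fold). AT2G41480, listed as peroxidase 25, fell from 179, 122.3 and 158 to 55.7, 66.3 and 60.7 (2.49-fold lower). AT5G66390, listed as peroxidase 72, fell from 1703, 1697 and 1564 to 916, 929 and 812 (1.87-fold lower). With equal array medians 3 peroxidases were called higher, and the lower calls were 2 without arf2 replicate 1 or 3, 3 without Col replicate 1. Without Col replicates 1 and 2 there were 3 higher and 2 lower.

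**Figure D4:**
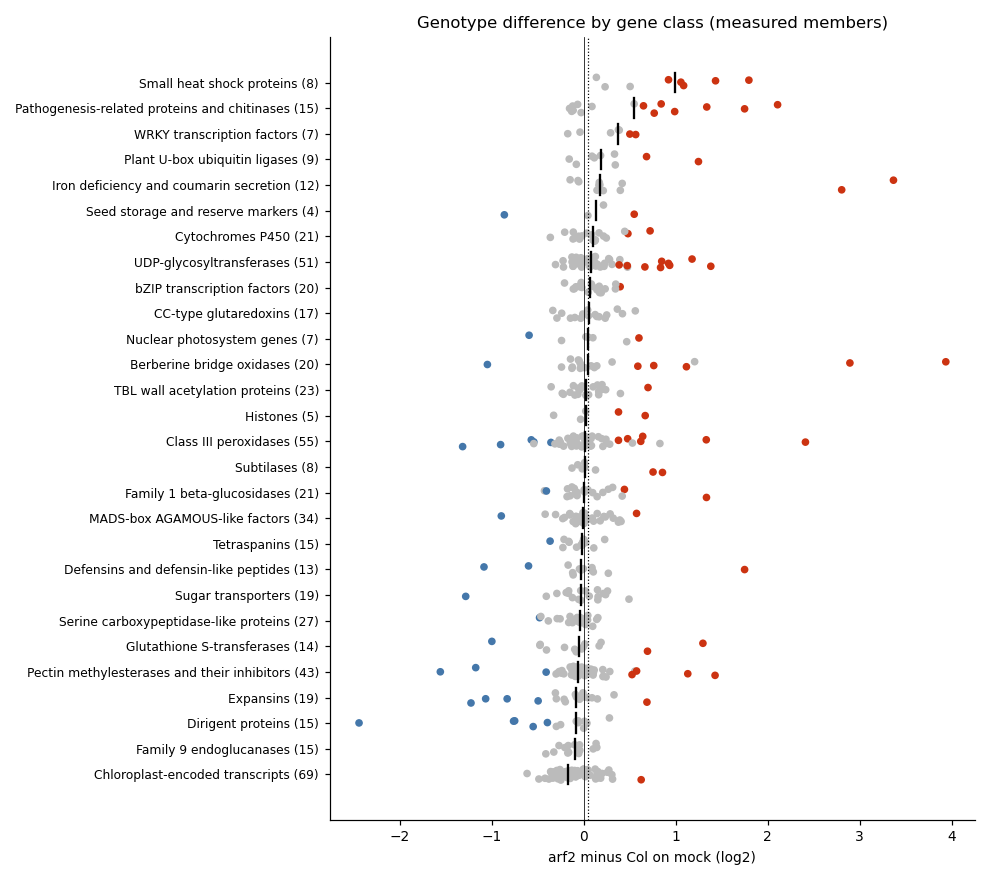
Log2 difference of arf2 minus Col on mock for the measured members of the gene classes with at least 2 calls or 15 measured members (number measured in brackets), with members called higher in red, called lower in blue and not called in grey, a black bar at each class median and a dotted line at the median of all genes. Small heat shock proteins have the highest median plotted (0.99), while that of chloroplast-encoded transcripts is -0.17, and -0.005 without Col replicate 3.

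Few genes of auxin response itself were named by the annotation, and GH3.3 alone among them was called. GH3 enzymes join auxin or jasmonate to amino acids and are themselves induced by auxin. GH3.3 read 365, 352 and 365 in Col and 148, 134 and 140 in arf2, a log2 change of -1.36 ± 0.10 (2.57-fold lower, limma adjusted p = 1.32e-05). The groups did not overlap, and the arrays of each genotype lay close together. No other of the 5 measured GH3 genes was called, with a log2 change of -0.20 ± 0.11 for GH3.17 and -0.14 ± 0.11 for WES1. None of 6 measured Aux/IAA repressors was called, with log2 changes from -0.20 to 0.12, nor any of 4 genes of auxin synthesis and transport (-0.21 to 0.18). Among all genes 6.24% were called, so an absence of calls in lists this small tells little. The 6 were measured out of 29 listed Aux/IAA genes, and the 4 out of 37 listed for auxin synthesis and transport.

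Other named calls lay outside these classes. The sugar exporter SWEET3 fell from 472, 582 and 571 to 247, 245 and 181 (2.43-fold lower). It was the only call among 19 measured sugar transporters, beside 6.24% of all genes called. Of 13 measured defensins and defensin-like peptides, PDF1.4 was called higher and 2 were called lower, beside 4.71% and 1.53% of all genes, with a median log2 change of -0.03. The lower ones, LCR69 and LCR68, were 2.12-fold and 1.51-fold lower in arf2, and LCR69 read 4225, 3659 and 3913 in Col and 1604, 2012 and 1971 in arf2. BGLU25, a family 1 beta-glucosidase, rose from 256, 203 and 229 to 569, 616 and 544 (2.52-fold). None of 17 CC-type glutaredoxins, 13 ubiquitin-conjugating enzymes, 9 RALF peptides and 8 glutamate receptor-like channels was called, beside 6.24% of all genes. A single glutaredoxin was called higher without Col replicates 1 and 2.

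Marker lists for other tissues and states were compared because whole seedlings were used, where fewer cells of a type and less RNA per cell cannot be told apart. Of 4 seed reserve markers, ICL, the isocitrate lyase of oil breakdown, read 6103, 5996 and 6230 in Col and 8944, 8354 and 9567 in arf2 (1.46-fold higher). The oil body protein gene OLEO3 went the other way, from 844, 773 and 924 to 428, 459 and 510 (1.82-fold lower). The summed intensity of the 4 was 6810 to 7196 in Col and 8857 to 10125 in arf2, and most of it came from ICL. Their part in the other differences was not tested. None of 4 root hair markers was called, beside 6.24% of all genes, and their sum was 76.3 to 135 in Col and 80.9 to 108 in arf2. Each of the 4 lay near the lower quartile of 23.1, so a fall or a small rise in them could have gone unseen at this signal. A large rise from such a level could be called, as for AT1G26390 (mean 20.7 in Col and 154 in arf2).

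Genes of the photosynthetic apparatus, many of which light induces, were also compared. The plot of gene classes includes them. Of 7 measured nuclear photosystem genes PSBY was called higher (1.52-fold) and PSAE-1 lower (1.51-fold), beside 4.71% and 1.53% of all genes. Each call was lost on leaving out any of 5 single arrays (adjusted p from 0.0693 to 0.0999 for PSBY without any but Col replicate 3, and from 0.0574 to 0.133 for PSAE-1 without any but Col replicate 2). The sum over the 7 was 11092 to 13137 in Col and 11995 to 13509 in arf2. PORB, the protochlorophyllide reductase that readies etiolated tissue for light, read 3469, 3609 and 3622 in Col and 2121, 2171 and 2387 in arf2 (1.60-fold lower). Its call was lost without arf2 replicate 1 or 2 (adjusted p = 0.08 and 0.0682). Of 69 chloroplast-encoded transcripts rbcL alone was called (1.54-fold higher), beside 4.71% and 1.53% of all genes called higher and lower. The median log2 change was -0.17, but -0.005 without Col replicate 3, -0.02 without arf2 replicate 3, -0.26 without Col replicate 1, -0.37 without Col replicates 1 and 2 and -0.31 with equal array medians. The rbcL call was lost without arf2 replicate 1, arf2 replicate 2 or Col replicate 1, with adjusted p from 0.0703 to 0.1215. When Col replicates 1 and 2 were both left out, 1 chloroplast-encoded transcript was called lower and none higher, and none of the 7 photosystem genes was called.

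The 5 arrays from BRZ-grown seedlings gave the same genotype comparison in separate samples, although the variance estimate was shared. There 135 of 21886 probe sets were called (0.617%), 65 higher in arf2 (0.297%) and 70 lower (0.32%). The same direction was called on both media for 87 probe sets, 42 higher and 45 lower. These were 5.41% of the mock calls and 64.4% of the BRZ calls. Of the 1177 probe sets called higher on mock, 943 (80.1%) were above 0 on BRZ, beside 51.3% of all tested, but their median log2 change was 0.60 on mock and 0.16 on BRZ. Of the 432 called lower, 327 (75.7%) were below 0 on BRZ, beside 48.7% of all tested, with medians of -0.62 and -0.21. Probe sets are not independent of each other, so these shares are descriptions. The number called on both media was 136 without Col mock replicate 2 and 199 without Col mock replicates 1 and 2 and arf2 mock replicate 3.

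The difference between the genotype effects on mock and on BRZ was itself tested, and it was called for 184 probe sets (0.841%), and in 176 of these the value on BRZ was shifted from the mock value toward 0 or past it. The 25S ribosomal RNA control also ran opposite ways on the media, as given above, and its part was not tested. Among the 218 probe sets at least 2-fold higher on mock it was called for 88, and in every one of these the value on BRZ was the lower. Among the 69 at least 2-fold lower it was called for 26, and in 25 of these the value on BRZ was the higher. The other was GH3.3. These probe sets were chosen for a large difference on mock, which favours that direction, so the counts are descriptions. AT1G26380 read 42.8, 36.4 and 37.6 in Col on BRZ and 41.7 on each of the 2 arf2 arrays, so its 15.3-fold difference on mock had no counterpart there (log2 change 0.10). AT3G13610 (-0.07), AT2G16630 (-0.25) and AT2G16005 (0.02) likewise had log2 changes near 0 on BRZ, and each difference between media was called, with adjusted p from 8.25e-05 to 0.00307. AT2G16005 was low in both genotypes on BRZ, at 24.1 to 34.3, which is close to its level in arf2 on mock.

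Several genes kept their difference on both media. QQS read 39.6, 43.5 and 45.6 in Col on BRZ and 394 and 388 in arf2, a log2 change of 3.19 ± 0.13 beside 2.69 on mock, and the difference between media was not called (adjusted p = 0.318). AT1G62510 was 2.72-fold higher in arf2 on mock and 3.16-fold on BRZ, and GSTU25 2.46-fold and 2.38-fold. The small heat shock gene AT1G53540 was 1.90-fold higher on mock and 3.05-fold on BRZ. AT3G05950 was 4.31-fold and 2.12-fold higher, and AT3G05170 had log2 changes of 1.56 and 1.72. Among the falls, AT1G55240 read 325, 462 and 420 in Col on BRZ and 67.2 and 54.7 in arf2 (6.57-fold lower). MSRB5, a methionine sulfoxide reductase, had log2 changes of -1.15 and -1.09, AT5G44580 -1.58 and -1.21, and AT5G55620 -1.12 and -1.56.

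GH3.3 fell further on BRZ than on mock. It read 637, 729 and 695 in Col on BRZ and 147 and 119 in arf2 (5.19-fold lower), and the difference between media was 1.02 ± 0.15 on the log2 scale (limma adjusted p = 0.00893). The arf2 arrays of both media lay between 119 and 148, and the Col arrays were higher on BRZ than on mock. AT4G11190 showed the reverse, with 5.43-fold on mock and 2.33-fold on BRZ. Of the 3 probe sets called in opposite directions on the media, 2 named a gene. PME61 was 2.94-fold lower in arf2 on mock and 1.76-fold higher on BRZ, where it read 67.6, 68.3 and 75.4 in Col and 121 and 126 in arf2. The other, AT3G10080, had log2 changes of -0.45 on mock and 0.66 on BRZ, and was singled out after its values were seen. Its call on mock was lost without any of the arf2 arrays or Col replicate 1 (adjusted p from 0.0574 to 0.0989).

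**Figure D5:**
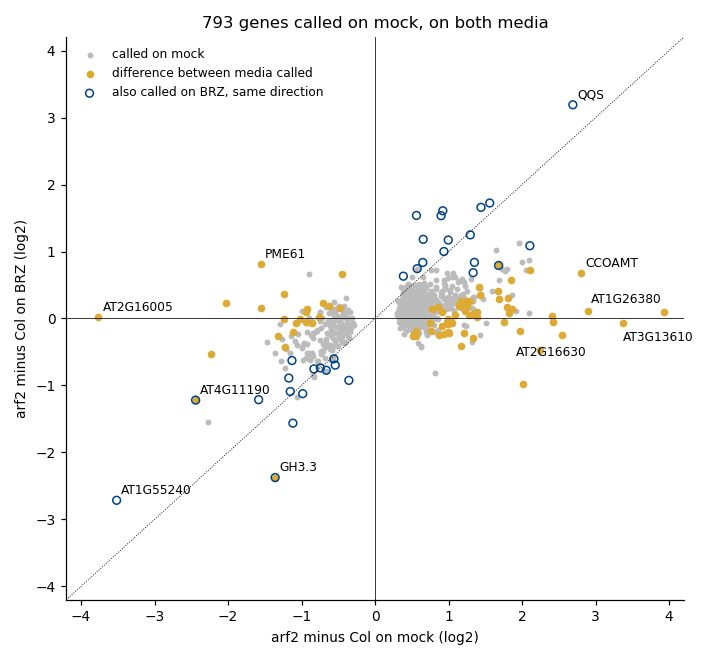
Log2 difference of arf2 minus Col on mock (horizontal) and on BRZ (vertical) for the 793 genes called on mock, with genes also called the same way on BRZ circled and genes whose difference between media was called in yellow. QQS and AT1G55240 lie near the dotted line of equal effects, AT1G26380 (3.94 and 0.10) and AT2G16005 (-3.77 and 0.02) near the horizontal axis, and PME61 on the opposite side of 0.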

How the data were processed

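The deposited value table held 1 intensity per probe set and array on a linear scale, which the authors estimated and normalized with gcRMA, per the labels and the submitters' processing notes, after quality control with simpleaffy. Versions are not given in the sources used here. Each intensity was converted to log2. Of 22810 probe sets, 64 controls and 860 dim probe sets (log2 above 4 on fewer than 2 arrays) were left out. All 11 arrays entered 1 model with 4 group means in limma 3.58.1 (R 4.3.3), and p-values were adjusted over 21886 probe sets. The model was tested on simulated data. Replicates are the labels' independent biological ones, and the p-values measure the spread between these arrays.

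Of the tested probe sets 12853 named 1 gene, 459 several and 8574 none in the supplied platform annotation, with symbols from a TAIR10.1 gene table. The probe set of highest mean stood for a gene. Genes were named by rule: the 12 largest rises and falls among calls without overlap, 6 in each direction called on both media, and called members of 50 gene lists with at least 4 measured members. AT1G26410, YLS5, P1R1, GH3.17, WES1, AT3G10080, BGLU42 and BHLH101 were added after their values were seen. The supplied table holds no product names, so list members without a symbol were entered by locus number from general knowledge of Arabidopsis gene families, and their family names come from there. The members and lists were chosen with earlier results of these data known. The 22 alternatives covered scaling, filters, variance models, the replicate block, thresholds and left-out arrays. No sequence was used here, and the planned promoter motif counts were not run.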

Additional observations from a re-analysis of the deposited data

Results flagged for a closer look

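The genotype difference itself differed between media for 33 of the genes named, by limma's test of the mock difference minus the BRZ difference (adjusted p under 0.05). Values below are that log2 difference. No group has over 3 arrays, so single outlying arrays were not searched for.

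Among genes higher in arf2 on mock, the value was 3.84 for AT1G26380, 2.78 for AT1G26390 and 0.94 for AT4G20830, all berberine bridge oxidases. It was 3.44 for AT3G13610 and 2.13 for CCOAMT of the coumarin route. AT2G38870 had 1.39, its neighbour YLS5 1.71, PDF1.4 1.80 and the chitinase AT1G02360 1.002. The peroxidases AT1G14550 and AT5G39580 had 2.37 and 1.62. UGT84A3 had 1.29, UGT73B1 0.99, PUB23 0.99 and the small heat shock gene AT5G37670 1.08. The value was 2.79 for AT2G16630, 2.48 for AT2G34930, 2.71 for AT3G16530 and 0.82 for the subtilase SBT4.12.

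Among genes lower in arf2 on mock, the value was -3.79 for AT2G16005, -2.37 for PME61, -2.25 for AT4G17470 and -1.71 for AT5G10770. The neighbours AT5G57785 and P1R1 had -1.70 and -1.003. The dirigent genes AT4G11190 and AT2G39430 had -1.22 and -0.79, EXPA4 had -0.80, the peroxidase AT2G41480 -1.06 and OLEO3 -0.79. SCPL45, a serine carboxypeptidase-like gene, had -0.63 and AT3G10080 -1.12. GH3.3 was the exception among them, at 1.02, since it was further below Col on BRZ.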

How the results depend on the processing

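All 1609 calls that an alternative could test kept their direction in each of the 22 alternatives. The filters, thresholds, variance trend, replicate blocks and the 6 mock arrays alone leave each log2 change as it was. Direction could not turn there, and the other alternatives reuse arrays that gave the calls. Of 115 named genes that were called, 29 kept the call in every alternative, 35 lost it only under the replicate block of 6 arrays, an adjusted p under 0.01 or the 2-fold rule, and 51 under another one. None reversed. Single mock arrays left out ended the call of 37 of the 115. The count of calls, of higher and of lower calls was 1609, 1177 and 432 as reported. Quantile normalization raised the lower calls to 710, and equal array medians gave 620 higher and 781 lower. With the 6 mock arrays alone there were 663 calls (457 higher, 206 lower), with an adjusted p under 0.01 there were 726 (514 and 212), and at least 2-fold differences numbered 287 (218 and 69). Leaving out each mock array in turn gave 882 to 3040 calls, 629 to 2468 of them higher and 253 to 572 lower. Leaving out Col replicates 1 and 2 gave 726 calls (388 higher), and leaving out arf2 replicate 3 as well gave 830 (474 higher). The 87 probe sets called alike on both media became 267 with array weights, 35 with an adjusted p under 0.01 and 29 with the 2-fold rule. That number was 59 to 136 on leaving out single mock arrays, 131 without Col replicates 1 and 2, 163 without Col replicate 2 and arf2 replicate 3, and 199 without all 3. The cause of these shifts was not tested, apart from the smaller number of arrays or the stricter rule that some alternatives have by construction.

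Replicate numbers did not pair the arrays: the deviations of same-numbered Col and arf2 mock arrays correlated at 0.11, -0.40 and -0.59. Some arrays with different numbers correlated more, at up to 0.60, and a pairing under other numbers was not tested. With the replicate block, 1177 probe sets were called (849 higher, 328 lower) and 43 alike on both media. With the replicate block in the 6 mock arrays alone, 135 were called (96 higher, 39 lower). Signal limits the 5472 probe sets of lowest mean, of which 0.58% were called higher and 0.16% lower.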
